A study of Homo sapiens with 9 samples.

Results

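The 53 genes described here are Wnt ligands, their receptors and co-receptors, secreted antagonists, R-spondin pathway genes, destruction complex genes, TCF/LEF transcription factors and feedback targets, out of 23619 genes in the deposited tables. They were picked by name for their place in the pathway, with earlier results of these data known, and the rule used no measured value. They were kept in a canonical group of 27 genes (the beta-catenin route), a non-canonical group of 8 genes (the planar polarity and calcium routes) and 18 genes that serve both. The study measured RNA in RKO, a colorectal cancer cell line, to ask which genes change when DIP2C is disrupted. Each of the 9 samples was 1 library of cells grown for 48 h: 2 samples of parental RKO (parental 1 and parental 2), 2 DIP2C-/- clones (E3 and C10) and 5 clones with 1 allele disrupted, DIP2C+/- (G1-A5, F6-A7, A6-C9, A9-A12 and H9-A4).

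All knockout clones had gone through gene editing with an adeno-associated virus targeting construct and outgrowth from single cells, which the parental samples had not, and per the study both DIP2C-/- clones were made by targeting the second allele in the same DIP2C+/- clone. E3 and C10 therefore share a lineage, and the spread between them, which the fits treat as that of 2 separate clones, may be too small. No clone that was targeted and selected but kept DIP2C intact was analysed here, so the loss of DIP2C and the history of cloning cannot be told apart. The labels list more DIP2C+/- clones than the study describes. Each clone was 1 library, so the spread within a group is the spread between clones, and the spread between the parental samples may be technical.

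Wnt ligands are lipid-modified secreted proteins that bind Frizzled receptors on the cell surface. In the canonical route the ligand joins a Frizzled to LRP5 or LRP6, the destruction complex of APC, AXIN and the kinases no longer marks beta-catenin for breakdown, and beta-catenin enters the nucleus and activates target genes with TCF/LEF factors, AXIN2 and NKD1 among them, which damp the signal in turn. In the non-canonical routes the ligands act through Frizzled with ROR or RYK on the cytoskeleton, cell polarity and calcium. In the intestine the canonical route keeps crypt stem cells dividing and most colorectal cancers carry APC or beta-catenin mutations, whereas RKO is known as a line without them.

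Values are given as CPM, counts scaled to the library's TMM-adjusted total (counts per 1e+06), and a sample's values are always listed in the same order, with H9-A4 last. The deposited values summed to between 14772593 and 21486483 per sample, with a median of 18751852, and 3 counts corresponded to between 0.148 CPM (G1-A5) and 0.194 CPM (E3), below which a level was not told from absence. DIP2C itself was at 60.95 and 70.9 CPM in the parental samples, 17.4 and 22.8 in E3 and C10, 46.98, 38.9, 41.7 and 33.6 in F6-A7, A9-A12, G1-A5 and A6-C9, and 56.3 in H9-A4. The DIP2C-/- clones were lowest, the DIP2C+/- clones lay between them and the parental samples, and H9-A4 was the DIP2C+/- clone closest to parental. DIP2C gave a log2 fold change of -1.71 (SE 0.25, adjusted p = 0.0998) in DIP2C-/- and -0.60 (SE 0.20, adjusted p = 0.386) in DIP2C+/- by edgeR's quasi-likelihood test over 9 samples, and -1.71 (SE 0.21, adjusted p = 0.00103) and -0.71 (SE 0.17, adjusted p = 0.0285) without H9-A4. The gene count includes exons outside the deleted stretch, so it checks the level of DIP2C mRNA and not the edit. Of 9 epithelial markers, KRT8, KRT18 and CDX2 were above 5 CPM in every sample, whereas 5 (KRT19, KRT20, VIL1, CDH1 and CDH17) stayed under 1 CPM in every sample and EPCAM reached at most 3.78 CPM. Of the fibroblast and leukocyte markers, 6 reached at most 4.98 CPM (LUM in G1-A5), and CD68, a lysosomal gene that many cell types express, was at 85.9 and 86.1 CPM in the parental samples, 16.3 in H9-A4 and 465 to 674 in the other 6 clones. The part of CD68-expressing cells in the results was not tested.

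H9-A4 stood apart from the other 6 clones in these genes. It had 1156 genes at least 2-fold from the parental mean, against 1852 to 2240 in each other clone. Between the parental samples 1227 genes differed by at least 2-fold. That count is between 2 single libraries and not from a mean, so it cannot be set beside the others. Of the 38 Wnt members with enough counts to be tested, 30 were within 0.5 log2 units of the parental mean in H9-A4. The same count was not made for the other clones or over all genes. The median difference of the 38 members was -0.04 in H9-A4 and between -0.49 (G1-A5) and -0.23 (A9-A12) in the other clones. Over all 15532 genes it lay between -0.006 (A6-C9) and 0.020 (E3) in the 7 clones. The label of H9-A4 puts it among the DIP2C+/- clones, where it was kept. With DIP2C and most members near parental in it, these values do not show whether it is a correctly targeted clone, and every DIP2C+/- value over 9 samples rests on that label. Results are given over the 9 samples and over the 8 samples without it. H9-A4 was set apart with its values known, so a p-value without it describes the other 8 libraries.

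**Figure D1:**
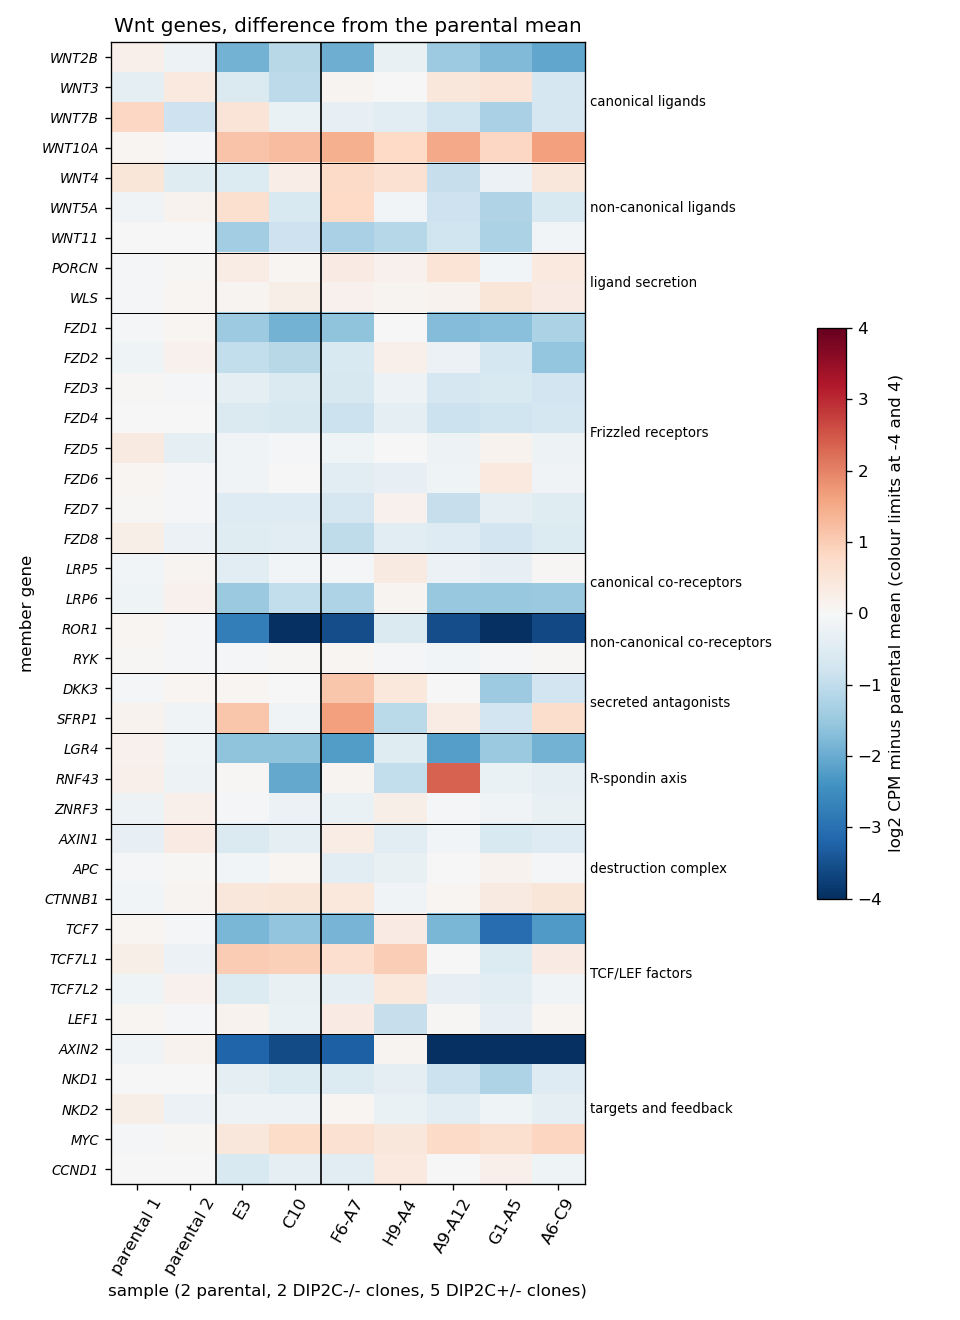
Each row is a Wnt member that passed the filter on low counts (38 genes) and each column 1 of the 9 samples, the 2 parental ones included. The colour is the log2 CPM of the sample minus the mean of the 2 parental samples. AXIN2, ROR1, TCF7, LGR4, FZD1 and LRP6 are low in 6 clones. In H9-A4 30 of the 38 members are within 0.5 of the parental mean, a count not made for the other clones.

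Without H9-A4, the receptors and co-receptors FZD1, FZD3, FZD4, LRP6, ROR1 and LGR4, the ligand WNT2B, the factor TCF7 and the feedback genes AXIN2 and NKD1 were called lower, and MYC was called higher. FZD5, FZD6, LRP5, RYK, NKD2 and CCND1 overlapped between parental and knockout samples and were not called in that fit. AXIN2, TCF7, LGR4, LRP6, FZD1 and ROR1 were 2.58-fold to 15.7-fold lower in 6 of the 7 clones than in the parental samples, and MYC was 1.61-fold higher. Of the 53 members, 38 passed the filter and 15 did not, none of which exceeded 0.938 CPM in any sample. Of the 38, 6 had a mean under 1 CPM. In these bulk samples, fewer cells with a transcript and less transcript per cell cannot be told apart.

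Over the 9 samples no member was called at an adjusted p under 0.05 by edgeR. In DIP2C-/- against parental 0 of 38 members and 1 of 15532 genes (0.00644%) were called, in DIP2C+/- against parental 0 members and 15 genes (0.0966%), and in all 7 clones against parental 0 members and 28 genes (0.18%). At an unadjusted p under 0.05 these contrasts held 10, 11 and 12 members, beside 1970, 1796 and 2079 of the 15532 genes. The lowest adjusted p of a member was 0.318, 0.23 and 0.171. DESeq2's Wald test on the same samples was run without the filter on low counts and so read all 53 members and 22499 genes. It called LGR4 in DIP2C-/-, and FZD4, LGR4 and MYC in DIP2C+/- and in all clones. Beside them stood 260, 168 and 275 of the 22499 genes.

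Without H9-A4, edgeR called 6 of 38 members lower and 1 higher in DIP2C-/- against parental, beside 2.44% and 2.32% of all genes. In DIP2C+/- against parental it called 10 lower and 1 higher, beside 3.58% and 4.37%, and in all 6 clones against parental the same 10 and 1, beside 4.47% and 4.48%. The members lower in both genotypes were AXIN2, FZD1, LGR4, LRP6, ROR1 and TCF7, those lower in DIP2C+/- and in all clones were also FZD3, FZD4, NKD1 and WNT2B, and the member that was higher was MYC. The median log2 fold change of the members in all 6 clones was -0.21, against 0.01 over all genes. These contrasts share the 2 parental samples, so they are not independent of each other. Leaving out parental 1 or parental 2 in addition to H9-A4 lowered the number of members called in all clones from 11 to 6 each, namely AXIN2, FZD1, LGR4, LRP6, ROR1 and TCF7, and the number called in DIP2C-/- from 7 to 3 each. With 1 parental library left, the parental arm has no spread of its own and is assumed to vary like the clones. Leaving out E3 or C10 lowered the DIP2C-/- count to 3 and 2.

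The contrast of DIP2C-/- with parental can be fitted on its own 4 libraries, among which H9-A4 is not. There 9 of 36 members were lower and 1 higher, beside 6.82% and 5.74% of 14381 genes. The values on the log2 scale were -3.40 (SE 0.19, adjusted p = 1.18e-05) for AXIN2, -1.72 (SE 0.16, adjusted p = 0.000231) for TCF7 and -1.65 (SE 0.19, adjusted p = 0.000797) for LGR4. FZD1 was at -1.67 (SE 0.20, adjusted p = 0.000993), LRP6 at -1.23 (SE 0.19, adjusted p = 0.00344), ROR1 at -3.67 (SE 0.61, adjusted p = 0.00524) and FZD4 at -0.63 (SE 0.15, adjusted p = 0.0243), and MYC was higher, at 0.59 (SE 0.14, adjusted p = 0.0259). FZD2, at -1.09 (SE 0.30, adjusted p = 0.0489), and CCND1, at -0.49 (SE 0.13, adjusted p = 0.037), were called lower in this fit and not in the 9-sample or 8-sample fits.

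The clones were also read singly, with no test, since each is 1 library. At least 2-fold below the parental mean were 8 members in E3 (5.47% of all genes), 9 in C10 (6.23%), 12 in G1-A5 (7.96%), 9 in F6-A7 (5.97%), 8 in A6-C9 (7.84%), 7 in A9-A12 (6.55%) and 2 in H9-A4 (4.18%). Those 2 were WNT11 and SFRP1, and SFRP1 in H9-A4, at 0.0805 CPM, was below the level of 3 counts (0.17 CPM). Values below that level also entered the counts of other clones, such as RNF43 in C10 (0.0533 CPM) and WNT5A in G1-A5 (0.0852 CPM). At least 2-fold above it were 3 in E3 (8.95%), 1 in C10 (5.7%), 0 in G1-A5 (4.01%), 3 in F6-A7 (8.13%), 1 in A6-C9 (6.19%), 2 in A9-A12 (7.33%) and 0 in H9-A4 (3.26%). Between the parental samples, 1 of the 38 members that passed, WNT7B, differed by at least 2-fold, beside 1227 of the 15532 genes. DKK1, which did not pass, was at 0.938 CPM in parental 1 and 0.116 CPM in parental 2. The value in parental 2 was below the level of 3 counts (0.157 CPM).

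All 7 clones lay below both parental samples for 8 members (WNT2B, WNT11, FZD3, FZD4, FZD8, ROR1, LGR4 and NKD1; 5.54% of all genes) and above both for 3 (MYC, WLS and WNT10A; 5.41%). With H9-A4 left out, 14 members lay below (11.5% of all genes), FZD1, FZD2, FZD7, LRP6, TCF7 and AXIN2 being added, and the same 3 lay above (12.4%).

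Among the ligands, 7 of 14 passed the filter and their levels were low throughout. WNT3, a canonical ligand and the most abundant canonical one here, was at 5.12 and 9.02 CPM in the parental samples, 4.5 and 3.2 in E3 and C10, 7.39, 9.46, 9.71 and 4.2 in F6-A7, A9-A12, G1-A5 and A6-C9, and 6.88 in H9-A4. Parental and knockout samples overlapped. WNT3 gave a log2 fold change of -0.19 (SE 0.35, adjusted p = 0.869) over 9 samples and -0.21 (SE 0.36, adjusted p = 0.797) without H9-A4. WNT11, a ligand of the non-canonical routes, was at 8.02 and 8.03 CPM in the parental samples, 3.05 and 4.53 in E3 and C10, 3.23, 4.6, 3.32 and 7.44 in F6-A7, A9-A12, G1-A5 and A6-C9, and 3.62 in H9-A4. Every clone lay below both parental samples, H9-A4 included, but by edgeR the log2 fold change of -0.92 (SE 0.35, adjusted p = 0.324) over 9 samples and -0.89 (SE 0.35, adjusted p = 0.148) without H9-A4 did not pass.

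WNT2B (chromosome 1, 113009163 to 113072787, plus strand, GRCh37, GENCODE annotation), a canonical ligand, was at 3.63 and 2.74 CPM in the parental samples, 0.775 and 1.39 in E3 and C10, 0.719, 1.1, 0.852 and 0.677 in F6-A7, A9-A12, G1-A5 and A6-C9, and 2.58 in H9-A4. H9-A4 was the highest clone, just under the lower parental sample, and the other 6 clones were 3.47-fold lower than parental on average. WNT2B gave a log2 fold change of -1.46 (SE 0.50, adjusted p = 0.313) over 9 samples and -1.80 (SE 0.40, adjusted p = 0.0177) without H9-A4. WNT10A, another canonical ligand, went the other way at 1.15 and 1.05 CPM in the parental samples, 2.57 and 2.77 in E3 and C10, 3.13, 3.38, 2.04 and 3.62 in F6-A7, A9-A12, G1-A5 and A6-C9, and 1.97 in H9-A4. All 7 clones lay above both parental samples. WNT10A gave a log2 fold change of 1.33 (SE 0.41, adjusted p = 0.282) over 9 samples and 1.39 (SE 0.41, adjusted p = 0.0594) without H9-A4, short of the threshold by edgeR and past it by DESeq2 without H9-A4. WNT4, WNT5A and WNT7B stayed at or below 1.28 CPM in every sample, and WNT3A, WNT6, WNT7A, WNT9A, WNT10B, WNT5B and WNT16 did not pass the filter.

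The genes that prepare ligands for release, WLS and PORCN, were not called. WLS, which carries Wnt proteins to the cell surface, was at 89.1 and 98.5 CPM in the parental samples, 102 and 111 in E3 and C10, 107, 103, 131 and 117 in F6-A7, A9-A12, G1-A5 and A6-C9, and 100.03 in H9-A4. Every clone was above both parental samples, by little. WLS gave a log2 fold change of 0.23 (SE 0.14, adjusted p = 0.486) over 9 samples and 0.25 (SE 0.13, adjusted p = 0.279) without H9-A4. PORCN, which attaches the lipid to the ligand, ranged from 9.17 to 9.84 CPM in the parental samples and from 8.81 to 13.9 CPM in the 6 clones, with overlap.

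Several Frizzled receptors were lower. Of 10, 8 passed the filter, 6 of these were below both parental samples in the 6 clones other than H9-A4, none was above, beside 11.5% and 12.4% of all genes. FZD1, FZD3 and FZD4, 3 of the 8, were called lower without H9-A4, beside 4.47% of all genes. FZD1 (chromosome 7, 90893748 to 90900641, plus strand) was at 28.96 and 32.6 CPM in the parental samples, 11.2 and 8.31 in E3 and C10, 9.96, 9.12, 9.62 and 12.7 in F6-A7, A9-A12, G1-A5 and A6-C9, and 31.3 in H9-A4. The 6 clones did not overlap the parental samples and were 3.03-fold lower on average, while H9-A4 lay between the parental samples. FZD1 gave a log2 fold change of -1.25 (SE 0.40, adjusted p = 0.297) over 9 samples and -1.60 (SE 0.18, adjusted p = 0.000334) without H9-A4.

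FZD4 (chromosome 11, 86656721 to 86666437, minus strand), a receptor also known for its role in the blood vessels of the retina, was at 32.7 and 33.1 CPM in the parental samples, 21.7 and 21.2 in E3 and C10, 18.1, 18.2, 18.7 and 20.1 in F6-A7, A9-A12, G1-A5 and A6-C9, and 24.9 in H9-A4. All 7 clones were below both parental samples, with H9-A4 the nearest. FZD4 gave a log2 fold change of -0.69 (SE 0.16, adjusted p = 0.185) over 9 samples and -0.74 (SE 0.13, adjusted p = 0.00624) without H9-A4. FZD3, known for planar polarity in axon growth, was at 58.7 and 55.5 CPM in the parental samples, 43.7 and 38.3 in E3 and C10, 36.4, 35.6, 37.1 and 33.3 in F6-A7, A9-A12, G1-A5 and A6-C9, and 49.5 in H9-A4. It gave the same order. FZD3 gave a log2 fold change of -0.55 (SE 0.16, adjusted p = 0.273) over 9 samples and -0.61 (SE 0.12, adjusted p = 0.0111) without H9-A4. Both calls were lost when either parental sample was left out in addition, with adjusted p of at most 0.0996 for FZD4 and 0.136 for FZD3. Over all 12 alternative settings without H9-A4 the log2 fold change stayed between -0.78 and -0.72 for FZD4 and between -0.66 and -0.58 for FZD3.

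FZD6, the most abundant Frizzled, which is best known for planar polarity, was not called, at 89.5 and 79.6 CPM in the parental samples, 75.9 and 84.7 in E3 and C10, 61.3, 74.5, 111 and 75.98 in F6-A7, A9-A12, G1-A5 and A6-C9, and 66.5 in H9-A4. The parental and knockout values overlapped. FZD6 gave a log2 fold change of -0.10 (SE 0.20, adjusted p = 0.87) over 9 samples and -0.07 (SE 0.19, adjusted p = 0.891) without H9-A4. Without H9-A4, FZD5 gave -0.15 (SE 0.18, adjusted p = 0.717), FZD2 -0.84 (SE 0.32, adjusted p = 0.144), FZD7 -0.57 (SE 0.20, adjusted p = 0.102) and FZD8 -0.65 (SE 0.31, adjusted p = 0.241), none of which passed. FZD9 and FZD10 did not pass the filter on low counts.

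Divided by the length of the canonical transcript, so that receptors can be set beside each other, the parental level was 21.3 to 24.02 CPM per kb for FZD6 and 5.14 to 8.34 for FZD5. FZD1 (4.2 to 4.73), FZD4 (4.42 to 4.47) and FZD3 (4.03 to 4.26) came next, the ranges of FZD1 and FZD4 and of FZD1 and FZD3 overlapping, then FZD7 (3.55 to 3.81), FZD2 (2.03 to 2.53) and FZD8 (0.949 to 1.34). In the 6 clones FZD6 was at 16.4 to 29.9 and FZD5 at 5.63 to 7.18 CPM per kb, whereas FZD1 was at 1.21 to 1.84, below the 2.42 to 3.17 of FZD3 and the 2.45 to 2.94 of FZD4. FZD1 thus moved from the third place in the mean level per kb to below FZD3, FZD4 and FZD7 (1.93 to 2.89).

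Of the canonical co-receptors, LRP6 was called lower without H9-A4 and LRP5 was not called. LRP6 (chromosome 12, 12268959 to 12419978, minus strand) was at 60.7 and 76.7 CPM in the parental samples, 24.4 and 34.6 in E3 and C10, 28.7, 23.6, 23.97 and 24.3 in F6-A7, A9-A12, G1-A5 and A6-C9, and 73.3 in H9-A4. The 6 clones were 2.58-fold lower than parental with no overlap and H9-A4 lay between the parental samples. LRP6 gave a log2 fold change of -1.05 (SE 0.38, adjusted p = 0.32) over 9 samples and -1.37 (SE 0.16, adjusted p = 0.000376) without H9-A4. LRP5, its close relative, was at 122 and 143 CPM in the parental samples, 98.2 and 123 in E3 and C10, 127, 112, 106 and 138 in F6-A7, A9-A12, G1-A5 and A6-C9, and 171 in H9-A4. Its values overlapped, H9-A4 was the highest sample. LRP5 gave a log2 fold change of -0.09 (SE 0.18, adjusted p = 0.882) over 9 samples and -0.18 (SE 0.14, adjusted p = 0.528) without H9-A4. Per kb of transcript LRP5 exceeded LRP6 in the parental samples, at 23.6 to 27.6 against 5.92 to 7.48 CPM per kb, and in the 6 clones, at 18.97 to 26.6 against 2.31 to 3.37.

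Of the non-canonical co-receptors, ROR1 (chromosome 1, 64239688 to 64647181, plus strand), a receptor tyrosine kinase-like protein that binds WNT5A and is mainly expressed in the embryo, had, with AXIN2, the largest differences of the members that passed. It was at 7.29 and 6.4 CPM in the parental samples, 0.872 and 0.213 in E3 and C10, 0.462, 0.464, 0.128 and 0.483 in F6-A7, A9-A12, G1-A5 and A6-C9, and 4.55 in H9-A4. The G1-A5 value was below the level of 3 counts, C10 was close to it, and H9-A4 lay between the parental samples and the other clones. The 6 clones averaged 0.437 ± 0.26 CPM (SD, n = 6) against 6.85 ± 0.63 CPM (SD, n = 2), 15.7-fold lower. ROR1 gave a log2 fold change of -2.82 (SE 0.89, adjusted p = 0.289) over 9 samples and -3.95 (SE 0.49, adjusted p = 0.000617) without H9-A4. RYK, the receptor that resembles a tyrosine kinase, was not called, at 99.98 and 95.5 CPM in the parental samples, 92.1 and 101 in E3 and C10, 103, 91.4, 92.2 and 102 in F6-A7, A9-A12, G1-A5 and A6-C9, and 93.5 in H9-A4. Its values overlapped closely. RYK gave a log2 fold change of -0.02 (SE 0.11, adjusted p = 0.959) over 9 samples and -0.01 (SE 0.11, adjusted p = 0.97) without H9-A4. ROR2 did not pass the filter.

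Secreted antagonists were at low levels in RKO and in the clones. DKK1, DKK4, SFRP2 and WIF1 did not pass the filter, SFRP1 stayed under 1 CPM, and DKK3, an atypical member of the Dickkopf family, was the most abundant at 3.07 and 3.43 CPM in the parental samples, 3.44 and 3.3 in E3 and C10, 7.14, 3.29, 1.15 and 1.88 in F6-A7, A9-A12, G1-A5 and A6-C9, and 4.35 in H9-A4. The clones lay on both sides of the parental samples, F6-A7 highest and G1-A5 lowest, and the log2 fold change of DKK3 was 0.10 (SE 0.57, adjusted p = 0.959) over 9 samples and 0.04 (SE 0.57, adjusted p = 0.981) without H9-A4. SFRP1 was not called in any contrast of the 9 or 8 samples.

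In the R-spondin pathway, which protects Frizzled from removal at the cell surface, LGR4 was called lower without H9-A4 and the ubiquitin ligases RNF43 and ZNRF3 were not called. LGR4 (chromosome 11, 27387508 to 27494337, minus strand), an R-spondin receptor of crypt stem cells, was at 34.3 and 26.7 CPM in the parental samples, 9.78 and 9.81 in E3 and C10, 6.32, 6.5, 10.7 and 8.12 in F6-A7, A9-A12, G1-A5 and A6-C9, and 21.4 in H9-A4. All 7 clones were below both parental samples, H9-A4 by the least. The other 6 clones averaged 8.54 ± 1.85 CPM (SD, n = 6) against 30.5 ± 5.37 CPM (SD, n = 2), 3.57-fold lower. LGR4 gave a log2 fold change of -1.55 (SE 0.38, adjusted p = 0.199) over 9 samples and -1.84 (SE 0.21, adjusted p = 0.00035) without H9-A4. ZNRF3, which marks Frizzled for breakdown, was at 12.2 to 14.4 CPM in the 6 clones and at 12.9 and 17.4 CPM in the parental samples. ZNRF3 gave a log2 fold change of -0.12 (SE 0.21, adjusted p = 0.849) over 9 samples and -0.19 (SE 0.19, adjusted p = 0.633) without H9-A4. RNF43, its relative, was under 1 CPM in every sample but A9-A12, and RSPO3 did not pass the filter.

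Transcripts of the beta-catenin core were not called. CTNNB1, which encodes beta-catenin, was at 326 and 375 CPM in the parental samples, 478 and 487 in E3 and C10, 469, 369, 451 and 485 in F6-A7, A9-A12, G1-A5 and A6-C9, and 315 in H9-A4. A9-A12 and H9-A4 were within or below the parental range and the other 5 clones above it. CTNNB1 gave a log2 fold change of 0.31 (SE 0.17, adjusted p = 0.453) over 9 samples and 0.38 (SE 0.13, adjusted p = 0.109) without H9-A4. APC gave -0.08 (SE 0.16, adjusted p = 0.871) over 9 samples and -0.05 (SE 0.15, adjusted p = 0.899) without H9-A4. AXIN1, the constitutive scaffold of the destruction complex, gave -0.34 (SE 0.24, adjusted p = 0.556) over 9 samples and -0.32 (SE 0.24, adjusted p = 0.477) without H9-A4, both with overlapping groups. RNA values do not measure beta-catenin protein, which the pathway regulates by breakdown.

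Of the TCF/LEF factors, which carry beta-catenin to its target genes, TCF7 was called lower without H9-A4 and the others were not called. TCF7 (chromosome 5, 133450372 to 133487556, plus strand), itself a known target of the pathway, was at 52.1 and 45.98 CPM in the parental samples, 13.6 and 16.4 in E3 and C10, 13.3, 13.7, 5.83 and 10.1 in F6-A7, A9-A12, G1-A5 and A6-C9, and 61.8 in H9-A4. The 6 clones averaged 12.2 ± 3.68 CPM (SD, n = 6) against 49.1 ± 4.34 CPM (SD, n = 2), 4.03-fold lower and with no overlap, G1-A5 was the lowest and H9-A4 the highest of all samples. TCF7 gave a log2 fold change of -1.37 (SE 0.64, adjusted p = 0.383) over 9 samples and -2.03 (SE 0.25, adjusted p = 0.000553) without H9-A4. LEF1, the highest of them per kb in the 6 clones, was at 44.1 and 39.1 CPM in the parental samples, 45.96 and 34.3 in E3 and C10, 52.01, 42.8, 33.00 and 43.7 in F6-A7, A9-A12, G1-A5 and A6-C9, and 21.8 in H9-A4. It overlapped between parental and knockout. LEF1 gave a log2 fold change of -0.09 (SE 0.27, adjusted p = 0.922) over 9 samples and 0.01 (SE 0.18, adjusted p = 0.983) without H9-A4, and H9-A4 was the lowest sample. TCF7L2 gave -0.22 (SE 0.23, adjusted p = 0.723) over 9 samples and -0.36 (SE 0.16, adjusted p = 0.204) without H9-A4 and TCF7L1 stayed under 1 CPM. Per kb of transcript the parental mean of TCF7 (14.9 CPM per kb) was above that of LEF1 (11.6), and in the 6 clones TCF7 was at 1.77 to 4.98, below LEF1 at 9.23 to 14.6.

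The start regions of TCF7, LGR4 and ROR1, members called lower without H9-A4, are shown for their TCF/LEF core letters and their CpG content. RefSeq promoter windows (GRCh38.p14, 250 bases before to 50 after a start) were at hand for 36 of the 53 members, 46 windows in all. They were searched on both strands for the TCF/LEF core written as CTTTGAT or CTTTGAA or CTTTGTT or CTTTGTA, printed in capitals. The first TCF7 window (chr5:134115363-134115662, plus strand, 25 CpG) holds no match, and the second (chr5:134123368-134123667, plus strand, 3 CpG) holds AACAAAG, the reverse complement of CTTTGTT, starting 50 bases before the start. The LGR4 window (chr11:27472741-27473040, minus strand, 18 CpG) and the ROR1 window (chr1:63773767-63774066, plus strand, 29 CpG) hold none.
TCF7, first start: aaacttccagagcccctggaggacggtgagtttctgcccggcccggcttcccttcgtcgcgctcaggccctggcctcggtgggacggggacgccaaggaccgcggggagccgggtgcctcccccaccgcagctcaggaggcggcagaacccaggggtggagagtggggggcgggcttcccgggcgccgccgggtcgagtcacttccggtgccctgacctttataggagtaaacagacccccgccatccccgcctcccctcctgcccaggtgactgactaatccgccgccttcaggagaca
TCF7, second start: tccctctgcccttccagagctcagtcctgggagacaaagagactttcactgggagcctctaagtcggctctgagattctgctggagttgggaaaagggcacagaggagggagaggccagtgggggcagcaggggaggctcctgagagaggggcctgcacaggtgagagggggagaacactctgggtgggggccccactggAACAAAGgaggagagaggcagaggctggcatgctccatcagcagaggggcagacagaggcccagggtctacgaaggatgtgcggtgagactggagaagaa
LGR4: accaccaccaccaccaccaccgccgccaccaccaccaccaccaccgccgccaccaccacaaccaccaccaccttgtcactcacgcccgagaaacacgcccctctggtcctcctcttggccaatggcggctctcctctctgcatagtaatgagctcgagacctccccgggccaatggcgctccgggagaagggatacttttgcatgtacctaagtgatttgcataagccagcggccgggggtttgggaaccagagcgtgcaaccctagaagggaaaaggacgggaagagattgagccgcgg
ROR1: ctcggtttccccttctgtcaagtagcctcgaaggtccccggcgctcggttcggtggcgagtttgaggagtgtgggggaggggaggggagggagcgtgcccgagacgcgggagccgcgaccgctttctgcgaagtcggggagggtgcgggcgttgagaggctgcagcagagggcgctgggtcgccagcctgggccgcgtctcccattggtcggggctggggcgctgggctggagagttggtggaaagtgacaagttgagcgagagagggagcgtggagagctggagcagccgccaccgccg

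A match is a description and not a binding site. Of all 35116 windows 13.8% held at least 1 match. Of the 36 members DKK1, TCF7, TCF7L2 and WNT3 did, 1 of which was called lower, and this is a count of genes and not of windows. AXIN2, FZD3, LRP6 and NKD1, also called lower, and MYC, called higher, had no window and were not searched. The median CpG count over all windows was 14, so the first TCF7 window, LGR4 and ROR1 lay above it and the second TCF7 window below. No methylation value was analysed here.

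Among feedback and target genes, AXIN2 and NKD1 were called lower and MYC higher, all without H9-A4. AXIN2 (chromosome 17, 63524681 to 63557766, minus strand), an inducible scaffold of the destruction complex and the most used readout of canonical signalling, was at 84.3 and 101 CPM in the parental samples, 9.98 and 7.68 in E3 and C10, 9.5, 3.88, 5.02 and 5.27 in F6-A7, A9-A12, G1-A5 and A6-C9, and 99.4 in H9-A4. H9-A4 lay between the parental samples, and the other 6 clones, at 6.89 ± 2.53 CPM (SD, n = 6) against 92.5 ± 11.5 CPM (SD, n = 2), were 13.4-fold lower. Without H9-A4 the log2 fold change was -3.39 (SE 0.36, adjusted p = 0.000414) in DIP2C-/- and -3.97 (SE 0.29, adjusted p = 1.53e-05) in DIP2C+/-. Over the 9 samples it was -2.33 (SE 0.96, adjusted p = 0.336) in all clones, the SE being 0.96 with H9-A4 and 0.25 without it, and DESeq2 gave no adjusted p for AXIN2 over the 9 samples.

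NKD1 (chromosome 16, 50582307 to 50683160, plus strand), which blocks the Dishevelled protein, was at 36.9 and 37.7 CPM in the parental samples, 28.3 and 25.6 in E3 and C10, 25.5, 20.4, 15.8 and 25.8 in F6-A7, A9-A12, G1-A5 and A6-C9, and 28.98 in H9-A4. All 7 clones were below both parental samples. NKD1 gave a log2 fold change of -0.62 (SE 0.21, adjusted p = 0.304) over 9 samples and -0.67 (SE 0.19, adjusted p = 0.0482) without H9-A4, close to the threshold. Its call was kept in 6 of 12 alternative settings without H9-A4 and lost without either parental sample, E3, C10, A9-A12 or A6-C9, where the adjusted p reached 0.268. NKD2, its relative, gave -0.24 (SE 0.20, adjusted p = 0.638) over 9 samples and -0.23 (SE 0.20, adjusted p = 0.572) without H9-A4.

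MYC, a growth-promoting transcription factor that the canonical route is known to activate, was at 714 and 754 CPM in the parental samples, 999.9 and 1230.1 in E3 and C10, 1124, 1251, 1145 and 1344 in F6-A7, A9-A12, G1-A5 and A6-C9, and 1001 in H9-A4. All 7 clones, H9-A4 included, lay above both parental samples, and the 6 others averaged 1182 ± 119 CPM (SD, n = 6) against 734 ± 28.2 CPM (SD, n = 2), 1.61-fold higher. The log2 fold change was 0.66 (SE 0.15, adjusted p = 0.171) over 9 samples and 0.69 (SE 0.13, adjusted p = 0.00748) without H9-A4, and the call was lost without either parental sample, where the adjusted p reached 0.1. Over the 12 alternative settings without H9-A4 the log2 fold change of MYC stayed between 0.63 and 0.73. In DIP2C-/- the call of MYC was kept in 5 of 12, with a log2 fold change between 0.42 and 0.75 and an adjusted p of up to 0.404. CCND1, the cell cycle gene cyclin D1, was at 237 and 244 CPM in the parental samples, 158 and 187 in E3 and C10, 179.7, 239, 279 and 212 in F6-A7, A9-A12, G1-A5 and A6-C9, and 313 in H9-A4. It was lower than parental in E3 and C10 and on both sides in the DIP2C+/- clones. CCND1 gave a log2 fold change of -0.12 (SE 0.19, adjusted p = 0.84) over 9 samples and -0.21 (SE 0.16, adjusted p = 0.481) without H9-A4. Of the 5 feedback and target genes, 2 were thus called lower and 1 higher without H9-A4, beside 4.47% and 4.48% of all genes.

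**Figure D2:**
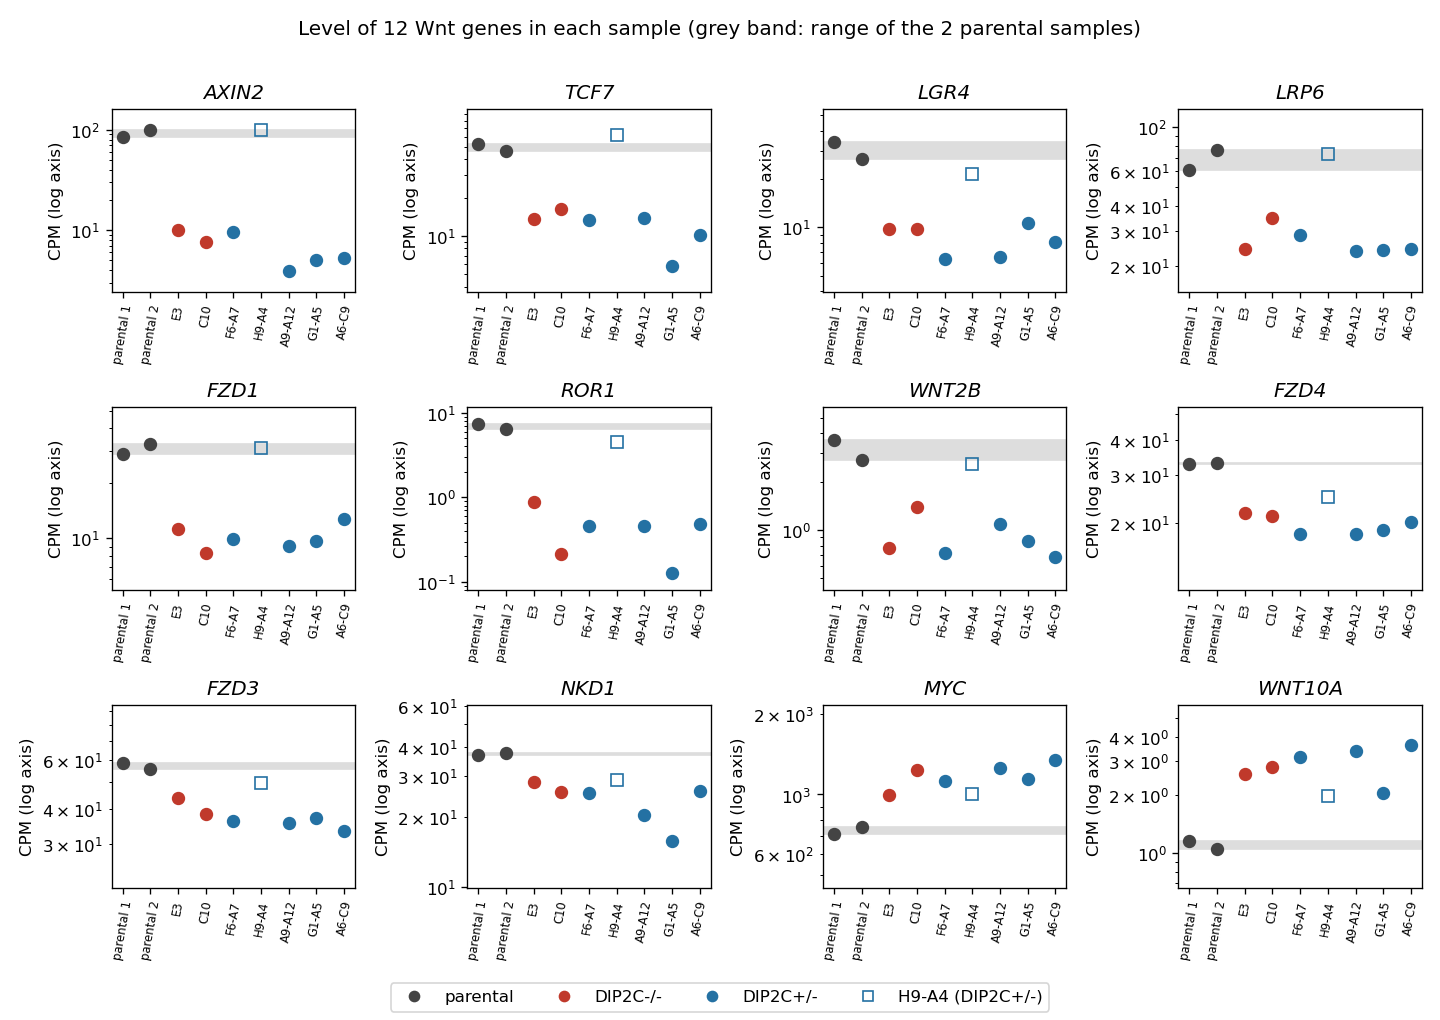
Level in CPM (log axis) of the 11 members called without H9-A4 and of WNT10A, which edgeR did not call, with 1 point for each of the 9 samples. In AXIN2, FZD1, LRP6 and TCF7 the 6 other clones are apart from the parental samples while H9-A4 is within or above the parental range, and for MYC all 7 clones are above both parental samples.

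The canonical and non-canonical groups were counted apart. Of the 21 canonical members that passed, 6 lay below and 2 above both parental samples in the 6 clones, beside 11.5% and 12.4% of all genes. Of the 5 non-canonical members 2 below (WNT11 and ROR1) and 0 above, and of the 12 shared members 6 below and 1 above. The median difference from the parental mean in the 6 clones was -0.22 for the canonical, -0.30 for the non-canonical and -0.37 for the shared members on the log2 scale, against -0.00135 over all genes tested. In H9-A4 these medians were 0.02, -0.10 and 0.01. With 5 genes, the non-canonical count rests on few measurements, and the groups were not tested against each other.

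Of the called members, AXIN2 and FZD1 overlap no annotated gene on the opposite strand. The others do, among them TCF7 with SKP1, LGR4 with LGR4-AS1, ROR1 with ROR1-AS1, WNT2B with ST7L, FZD4 with PRSS23, LRP6 with BCL2L14 and MYC with CASC11, and so do members that were not called, such as FZD6, LEF1, CTNNB1, RYK and WNT11. Whether the counting used the strand is not given in the sources used here, so reads of such partners cannot be told apart.

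A list of 112 further Wnt pathway genes was read in the same fits, of which 92 passed the filter over 9 samples and 91 without H9-A4. Over the 9 samples edgeR called 0 of them in any contrast. At an unadjusted p under 0.05 it held 19, 13 and 19 in DIP2C-/-, DIP2C+/- and all clones against parental and 4 between the genotypes. Over all 15532 genes these counts were 1970, 1796, 2079 and 865. DESeq2 on the same samples, run without the filter, read all 112 pathway genes. It called NOTUM and SP5 lower in each of the first 3 contrasts, CAMK2D and BCL9L in DIP2C-/-, and CAMK2D and NFATC1 in all clones. Over all 22499 genes it called 260, 168 and 275 in these contrasts. Without H9-A4, edgeR called 7 higher and 8 lower in all 6 clones, beside 4.48% and 4.47% of all genes. Of 9 other ligand and receptor genes 1 was lower, of 22 cytoplasmic genes 1 was higher, of 15 nuclear partners 1 was lower, of 15 other target genes 4 were higher and 1 lower, and of 30 planar polarity and calcium genes 2 were higher and 5 lower.

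Feedback regulators NOTUM and SP5 were called lower by edgeR without H9-A4 and by DESeq2 with and without it. NOTUM, a secreted enzyme that strips the lipid from Wnt proteins, was at 11.3 and 18.6 CPM in the parental samples, 1.94 and 2.45 in E3 and C10, 2.82, 1.6, 0.724 and 2.46 in F6-A7, A9-A12, G1-A5 and A6-C9, and 6.52 in H9-A4. SP5, a transcription factor induced by beta-catenin, was at 3.2 and 2.5 CPM in the parental samples, 0.145 and 0.16 in E3 and C10, 0.616, 0.422, 0.213 and 0.193 in F6-A7, A9-A12, G1-A5 and A6-C9, and 1.33 in H9-A4. In both, H9-A4 lay between the parental samples and the other clones. NOTUM gave a log2 fold change of -2.51 (SE 0.54, adjusted p = 0.153) over 9 samples and -2.91 (SE 0.39, adjusted p = 0.000986) without H9-A4. SP5 gave -2.91 (SE 0.58, adjusted p = 0.121) over 9 samples and -3.41 (SE 0.49, adjusted p = 0.00164) without H9-A4. SP5 in E3 was below the level of 3 counts (0.194 CPM in that library) and in C10 just above it (0.156 CPM), so its fold change is uncertain there.

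CD44, JUN, PLAUR and FOSL1 were the target genes called higher without H9-A4, and all are known targets of other growth pathways too. CD44, a hyaluronan receptor of the cell surface, was at 28.5 and 24.9 CPM in the parental samples, 182 and 272 in E3 and C10, 184, 187, 164 and 287 in F6-A7, A9-A12, G1-A5 and A6-C9, and 1.01 in H9-A4. H9-A4 was below both parental samples, on the other side from the 6 other clones, and the same holds for JUN, a subunit of the AP-1 transcription factor, at 67.3 and 101 CPM in the parental samples, 391 and 485 in E3 and C10, 565, 588, 168 and 409 in F6-A7, A9-A12, G1-A5 and A6-C9, and 15.4 in H9-A4. The log2 fold change without H9-A4 was 3.0 (SE 0.26, adjusted p = 4.71e-05) for CD44 and 2.37 (SE 0.42, adjusted p = 0.00579) for JUN, and over 9 samples 2.76 (SE 1.22, adjusted p = 0.364) and 2.15 (SE 0.97, adjusted p = 0.373). PLAUR, the urokinase receptor, was at 48.6 and 43.8 CPM in the parental samples, 101 and 106 in E3 and C10, 111, 173, 85.7 and 123 in F6-A7, A9-A12, G1-A5 and A6-C9, and 20.01 in H9-A4. FOSL1, another AP-1 subunit, was at 113 and 91.8 CPM in the parental samples, 179 and 253 in E3 and C10, 264, 328, 179.8 and 269 in F6-A7, A9-A12, G1-A5 and A6-C9, and 65.5 in H9-A4. Both had H9-A4 below the parental samples and the other 6 clones above them, and gave 1.15 (SE 0.56, adjusted p = 0.399) over 9 samples and 1.33 (SE 0.23, adjusted p = 0.00458) without H9-A4 for PLAUR and 1.10 (SE 0.47, adjusted p = 0.348) over 9 samples and 1.26 (SE 0.23, adjusted p = 0.00598) without H9-A4 for FOSL1.

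In the non-canonical routes, the kinases MAPK8 (known as JNK), PRKCA and CAMK2D were called lower without H9-A4. MAPK8 was at 57.9 and 55.6 CPM in the parental samples, 31.7 and 31.5 in E3 and C10, 28.2, 25.9, 31.6 and 25.3 in F6-A7, A9-A12, G1-A5 and A6-C9, and 50.8 in H9-A4. All 7 clones were below both parental samples, H9-A4 by the least, and its log2 fold change was -0.82 (SE 0.23, adjusted p = 0.267) over 9 samples and -0.97 (SE 0.13, adjusted p = 0.00117) without H9-A4. PRKCA, a calcium-dependent protein kinase C, was at 45.2 and 39.9 CPM in the parental samples, 20.9 and 19.1 in E3 and C10, 19.6, 16.5, 22.9 and 19.1 in F6-A7, A9-A12, G1-A5 and A6-C9, and 45.4 in H9-A4. H9-A4 was just above both parental samples and the other 6 clones were below them. PRKCA gave a log2 fold change of -0.87 (SE 0.31, adjusted p = 0.319) over 9 samples and -1.11 (SE 0.15, adjusted p = 0.00123) without H9-A4. CAMK2D, a calmodulin-dependent kinase, was at 56.2 and 56.8 CPM in the parental samples, 19.2 and 22.7 in E3 and C10, 24.6, 16.8, 32.4 and 23.6 in F6-A7, A9-A12, G1-A5 and A6-C9, and 42.6 in H9-A4. All 7 clones were below both parental samples, H9-A4 the nearest. CAMK2D gave a log2 fold change of -1.13 (SE 0.26, adjusted p = 0.185) over 9 samples and -1.29 (SE 0.20, adjusted p = 0.00248) without H9-A4. TNKS, a tankyrase that marks AXIN proteins for breakdown, was at 41.1 and 48.4 CPM in the parental samples, 77.97 and 82.03 in E3 and C10, 64.1, 85.6, 76.98 and 73.2 in F6-A7, A9-A12, G1-A5 and A6-C9, and 39.5 in H9-A4. H9-A4 was below both parental samples and the other 6 clones above them. TNKS gave a log2 fold change of 0.67 (SE 0.24, adjusted p = 0.32) over 9 samples and 0.78 (SE 0.14, adjusted p = 0.00707) without H9-A4. TNKS and its relative TNKS2 were listed with the beta-catenin route. TNKS2 was at 65.5 and 69.3 CPM in the parental samples and 16.6 and 21.4 in E3 and C10. It was at 12.7, 73.5, 71.6 and 16.4 in F6-A7, A9-A12, G1-A5 and A6-C9, and 69.04 in H9-A4. EdgeR gave -1.03 (SE 0.53, adjusted p = 0.282) without H9-A4, and the 4-library fit of DIP2C-/- called it lower.

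**Figure D3:**
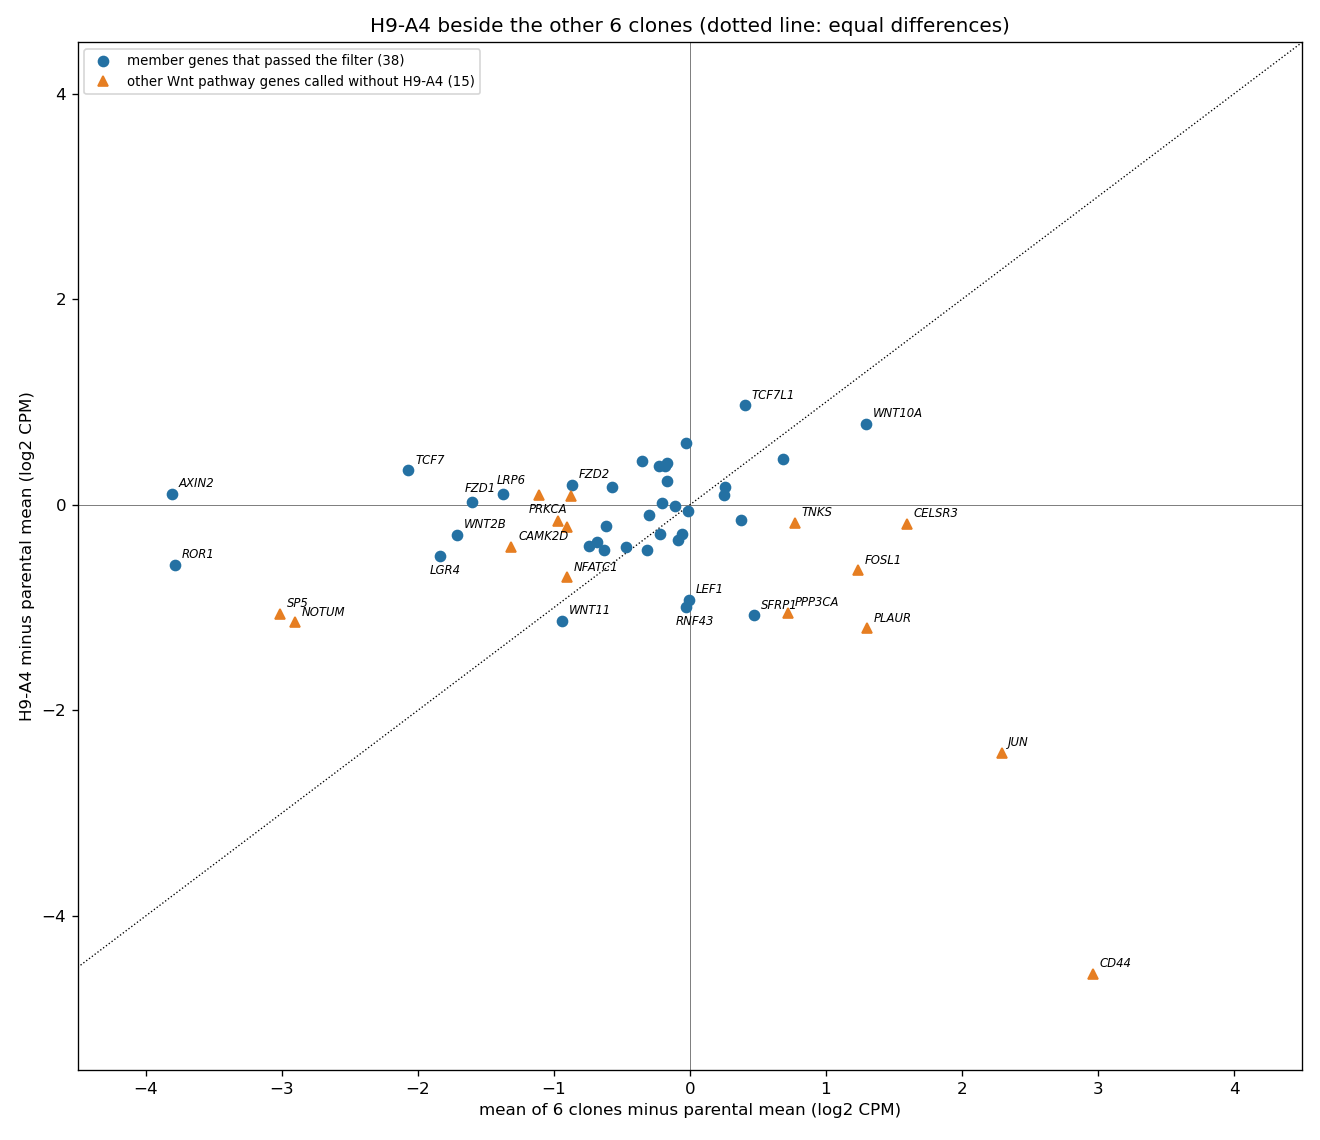
Each point is a gene, with its mean difference from parental in the 6 other clones on the x axis and its difference in H9-A4 on the y axis, both in log2 CPM (circles, the 38 members; triangles, the 15 other Wnt pathway genes called without H9-A4; dotted line, equal differences). AXIN2, TCF7, FZD1 and LRP6 lie far left at about no difference in H9-A4, and CD44 and JUN lie on opposite sides in H9-A4 and the other clones.

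DIP2C+/- and DIP2C-/- clones were compared with each other to see whether the loss of 1 or both alleles differed. Per the study both DIP2C-/- clones came from the same DIP2C+/- clone. The labels do not say whether that clone is among those compared, so the groups may share a lineage. Over the 9 samples 0 of 38 members and 0 of 15532 genes (0%) were called by edgeR, with 2 members and 865 genes at an unadjusted p under 0.05 and 0 members and 4 genes called by DESeq2. Without H9-A4 the counts were 0 members and 0 genes (0%) by edgeR, 2 members and 1093 genes at an unadjusted p under 0.05, and 0 members and 12 genes by DESeq2. The lowest adjusted p of a member was 0.878 over 9 samples and 0.687 without H9-A4. For AXIN2 the DIP2C-/- clones averaged 8.83 ± 1.63 CPM (SD, n = 2) and the DIP2C+/- clones without H9-A4 5.92 ± 2.46 CPM (SD, n = 4), with a log2 fold change of DIP2C+/- against DIP2C-/- of -0.58 (SE 0.30, adjusted p = 0.723). For LGR4 it was -0.31 (SE 0.25, adjusted p = 0.819) and for LRP6 -0.23 (SE 0.18, adjusted p = 0.816). A p that misses the threshold does not show that the genotypes had the same level.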

How the data were processed

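RNA of 9 RKO samples was sequenced, 1 library each. The authors deposited estimated counts per gene symbol, from reads aligned to hg19, and the submitters' processing notes name TopHat2 2.0.4 and Cufflinks 2.2.1. How the counts were written from these tools, and which strand was counted, is not given in the sources used here. The deposited values of a sample are mostly whole multiples of 1 step (98.1% to 98.6% of low values within 0.02 of a whole number of steps), which lay between 0.711 and 1.11.

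Here the deposited estimated counts were rounded to whole numbers and fitted with edgeR 4.0.16 (R 4.3.3) after filterByExpr, which kept 15532 of 23619 genes, and TMM scaling, with all 9 samples in 1 fit and 1 coefficient per group. Contrasts used the quasi-likelihood test with Benjamini-Hochberg adjustment over all genes tested, and a gene was called at an adjusted p under 0.05. In the contrast of all knockout clones the 2 knockout coefficients were weighted by their number of clones. Each coefficient follows the group mean on the count scale, so a clone with a high value weighs more within its group. For AXIN2 over 9 samples this contrast gave -2.33, and the plain mean of the log2 differences of the 7 clones was -3.25. P-values measure the spread between these libraries. The SE printed for edgeR is the absolute log2 fold change over the square root of the test's F statistic, not a fitted standard error. DESeq2 1.42.0, other scalings and filters, fits of the compared groups only, counts divided by the step and leaving out each library were alternatives. The fit of 8 samples without H9-A4 (15390 genes) is given beside the calls. The fit of DIP2C-/- and parental on their 4 libraries is given for the members it called and for TNKS2. Differences of single clones are log2 CPM with a prior count of 2. Code was tested on simulated data.

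The members and lists were chosen with earlier results of these data known. Values in every sample are given for members that were called, that had all clones, or all but H9-A4, on 1 side of both parental samples with a mean difference of at least 1 on the log2 scale, or that had the highest mean CPM of their class, for DIP2C and for at most 10 other pathway genes with the smallest p. CCND1, FZD2 and TNKS2 are outside this rule and were named after their values were seen. Positions and transcript lengths come from GENCODE on GRCh37, and all members were matched by symbol. Promoter windows come from RefSeq on GRCh38.p14.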

Additional observations from a re-analysis of the deposited data

Results flagged for a closer look

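The flag compared the gap between a clone's log2 CPM and the nearest clone with the range of the group, not the fold size. By this rule H9-A4 was flagged above the other 4 DIP2C+/- clones in 4 of the 39 genes tested. These were AXIN2, at 6.64 in H9-A4 (99.4 CPM against 3.88 to 9.5 CPM in the others), LRP6, at 6.2 (73.3 against 23.6 to 28.7 CPM), FZD3, at 5.63 (49.5 against 33.3 to 37.1 CPM), and FZD1, at 4.97 (31.3 against 9.12 to 12.7 CPM). Chance flags about 1 in 20 groups. The genes share the 1 library, so they are not separate signs of it. TCF7, at 61.8 CPM in H9-A4 against 5.83 to 13.7 CPM in the others, was not flagged, since the low G1-A5 widened the range.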

How the results depend on the processing

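Over the 9 samples, DESeq2's Wald test raised the genes called from 1 to 260 in DIP2C-/- (members 0 to 1), from 15 to 168 in DIP2C+/- (members 0 to 3), from 28 to 275 in all clones (members 0 to 3) and from 0 to 4 between the genotypes. With only the groups compared, DIP2C-/- gave 1807 genes and 10 members, DIP2C+/- 8 genes and the contrast between genotypes 1 gene. With no filter DIP2C-/- gave 3 genes, and with at least 10 counts in every sample the contrasts of DIP2C-/-, DIP2C+/- and all clones with parental gave 0, 8 and 11 genes. Leaving out 1 library in turn gave 1 to 733 genes and 0 to 7 members in DIP2C-/-, 1 to 1224 and 0 to 11 in DIP2C+/-, 1 to 1378 and 0 to 11 in all clones, and 0 to 3 genes between the genotypes. The upper ends of the first 3 contrasts, and every member call among them, came from leaving out H9-A4. Leaving out parental 1 or 2 left 1 and 2 genes in DIP2C+/- and in all clones.

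Without H9-A4, DESeq2 raised DIP2C-/- from 733 to 1273 genes and the contrast between genotypes from 0 to 12. Leaving out a further library gave 203 to 994 genes and 2 to 7 members in DIP2C-/-, 354 to 1681 and 6 to 12 in DIP2C+/-, 404 to 1837 and 6 to 12 in all clones, and 0 to 3 genes between the genotypes. The counts under the full ones by more than 1.5 times came from leaving out a parental sample, or E3 or C10 in DIP2C-/-. The other settings, added after the data were seen, changed no count by over 1.5 times, and AXIN2, FZD1, LGR4, LRP6, ROR1 and TCF7 kept their call in all clones in 12 of 12, in which a lone parental sample is assumed to vary like the clones. The members on 1 side of both parental samples in every clone numbered 11 to 17 when 1 library was left out, 17 without H9-A4. The members at least 2-fold from parental in H9-A4 went from 2 to 4 with a prior count of 0.5, to 1 with at least 10 counts, and to 3 to 5 when a parental sample was left out. No count or named member changed direction. Of 618 values of named members over 9 samples 568 kept their side of the threshold and 50 passed it, and of 468 without H9-A4 410 kept it, 53 lost it and 5 passed it. The depth leaves members under 0.194 CPM, as ROR1 in G1-A5, unresolved. No paired analysis was possible because the labels number only the parental samples and name the clones. The cause of the changes was not tested.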

Other observations

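Some members stood out in single samples, which have no replicate. RNF43, a ligase that removes Frizzled, was at 3.34 CPM in A9-A12 and at most 0.64 CPM in every other sample. LEF1 was at 21.8 CPM in H9-A4, against 33.00 to 52.01 CPM in the other samples. AXIN1 was at 116 CPM in parental 2 and 112 CPM in F6-A7, and at 59.99 to 85.8 CPM elsewhere, parental 1 included.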
